A study of Homo sapiens with 16 samples.

Results

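The genes of 8 kinases that act on splicing factors were followed across 2 cell lines and 4 conditions. They were CLK1, CLK2, CLK3, CLK4, SRPK1, SRPK2, DYRK1A and PRPF4B, a list written from their known roles and matched by Ensembl identifier, and they make up 8 of the 58676 genes in the count files. All 8 passed the filter on low counts in both lines.

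Poly(A) RNA was sequenced from the human lung cancer line A549 and from SUM159, a line of triple-negative breast cancer. Cells were untreated, or received 2 µM palbociclib, 3 µM indisulam or both for 16 h, and each of these 8 groups held 2 libraries. Palbociclib inhibits CDK4 and CDK6, the kinases that drive cells out of G1, and indisulam joins the splicing factor RBM39 to the DCAF15 ubiquitin ligase so that the RBM39 protein is destroyed. The duplicates were described by the study as technical, so every p-value below measures the spread between these libraries and not between independent cultures. Comparisons with untreated cells share the same 2 untreated libraries of the line.

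Splicing factors of the SR family carry long runs of alternating arginine and serine, and the phosphates on those serines decide where the proteins are found and whether they engage the spliceosome. SRPK1 and SRPK2 act mainly in the cytoplasm and mark SR proteins for import into the nucleus. The CLK kinases act in the nucleus and add further phosphates, which release SR proteins from nuclear speckles. DYRK1A, the chromosome 21 kinase with many substrates besides splicing factors, and PRPF4B, a kinase of the U4/U6.U5 tri-snRNP that phosphorylates PRPF6 and PRPF31, act on other components. CLK1 and CLK4 transcripts are known to be held partly unspliced in the nucleus, and the gene counts used here do not separate such forms.

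On GRCh38, with GENCODE 44 coordinates, the genes lie on 7 chromosomes. CLK1 (ENSG00000013441) is on the minus strand at chr2:200853009-200864691, CLK2 (ENSG00000176444) on the minus strand at chr1:155262868-155278491, CLK3 (ENSG00000179335) on the plus strand at chr15:74598500-74645414 and CLK4 (ENSG00000113240) on the minus strand at chr5:178602664-178630615. SRPK1 (ENSG00000096063) is on the minus strand at chr6:35832966-35921342 and SRPK2 (ENSG00000135250) on the minus strand at chr7:105110704-105399308. DYRK1A (ENSG00000157540) is on the plus strand at chr21:37365573-37526358 and PRPF4B (ENSG00000112739) on the plus strand at chr6:4021267-4064983.

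Promoters are shown for 4 members chosen for their contrasts, namely CLK1 and CLK4, which rose with indisulam in both lines, SRPK1, which fell in every comparison with untreated cells, and CLK2, which differed between the lines. Each window runs from 250 bases before to 50 bases after the start of transcription, read 5′ to 3′ on the strand of the gene, from RefSeq on GRCh38.p14, in which 7 of the 8 members had an entry (PRPF4B did not). All 4 windows are on the minus strand, at chr2:200864609-200864908 for CLK1, chr5:178627001-178627300 for CLK4, chr6:35921049-35921348 for SRPK1 and chr1:155273455-155273754 for CLK2. Capitals mark the matches to the GC box GGGCGG or the E-box CACGTG, searched on both strands, so that a GC box on the other strand reads CCGCCC.
CLK1: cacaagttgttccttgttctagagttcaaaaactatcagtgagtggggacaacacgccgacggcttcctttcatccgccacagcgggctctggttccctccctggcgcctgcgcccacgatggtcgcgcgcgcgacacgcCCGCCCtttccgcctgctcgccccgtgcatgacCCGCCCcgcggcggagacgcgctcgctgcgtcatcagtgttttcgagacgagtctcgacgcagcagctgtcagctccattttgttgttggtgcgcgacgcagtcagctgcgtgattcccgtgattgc
CLK4: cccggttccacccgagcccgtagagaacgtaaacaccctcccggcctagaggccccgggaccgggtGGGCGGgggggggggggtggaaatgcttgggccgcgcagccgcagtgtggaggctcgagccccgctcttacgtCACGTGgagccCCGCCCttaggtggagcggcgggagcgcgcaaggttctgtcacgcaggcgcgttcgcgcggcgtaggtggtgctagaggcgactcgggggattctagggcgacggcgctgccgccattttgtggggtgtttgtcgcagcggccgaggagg
SRPK1: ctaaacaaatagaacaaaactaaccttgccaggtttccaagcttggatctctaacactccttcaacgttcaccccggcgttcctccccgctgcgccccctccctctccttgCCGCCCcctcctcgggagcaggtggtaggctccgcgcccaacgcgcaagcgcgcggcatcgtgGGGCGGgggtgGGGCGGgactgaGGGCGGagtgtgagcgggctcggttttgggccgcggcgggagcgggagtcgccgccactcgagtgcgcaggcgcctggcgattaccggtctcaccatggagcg
CLK2: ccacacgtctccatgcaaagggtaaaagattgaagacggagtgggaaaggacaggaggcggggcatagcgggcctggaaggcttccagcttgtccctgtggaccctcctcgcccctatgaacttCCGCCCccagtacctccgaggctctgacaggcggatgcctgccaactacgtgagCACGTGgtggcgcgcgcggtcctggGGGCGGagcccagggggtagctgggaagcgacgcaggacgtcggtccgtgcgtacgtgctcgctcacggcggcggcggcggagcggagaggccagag

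GC boxes were found in all 7 promoters, with 2 in each CLK promoter and in that of DYRK1A, 4 in that of SRPK1 and 6, some of them overlapping, in that of SRPK2. Of 34796 RefSeq promoters of the same length, 44.9% held at least 1. An E-box was found once each in the promoters of CLK2, CLK4 and DYRK1A, against 7.2% of all promoters. Neither of the E2F motifs searched (TTTCGCGC and TTTGGCGC), nor the cyclic AMP response element TGACGTCA, nor the letters CCAAT were found in these 7 windows, where 0.506%, 0.652%, 1.84% and 34.6% of all promoters held them. Of the 4 promoters printed, those of CLK1 and SRPK1 held GC boxes only, and those of CLK4 and CLK2 held an E-box as well. Whether any match went with the response to a drug was not tested. A match is a description of the letters only.

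Gene counts per library ran from 18306636 to 34075588, so that 3 counts, taken as the smallest level that could be seen, corresponded to 0.0880 to 0.164 CPM (counts scaled to a common library size, with TMM, the trimmed mean of M-values, as the scaling). This floor covers counting error only. The member with the fewest reads was CLK4, with 197 and 221 counts in untreated A549, far above it. The 2 libraries of a group differed beyond counting error throughout (chi-square per degree of freedom 1.59 to 9.13, highest in untreated SUM159), so none was a copy of another. Of the marker genes examined, most went with the labels of the lines and CDKN2A did not. AKR1B10 lay between 4760 and 8080 CPM and ALDH1A1 between 3630 and 4600 in A549, against at most 4.62 and 0.363 in SUM159, while VIM lay between 2730 and 3900 CPM in SUM159 and at most at 961 in A549. In SUM159, ESR1 reached at most 0.792 CPM and PGR at most 0.0379, and ERBB2 lay between 92.6 and 144, a range close to the 110 to 143 of A549. CDKN2A, which encodes p16 and is described as lost in A549, was counted at 1.40 to 2.56 CPM in A549. In SUM159 it was counted at no more than 0.0454, under the floor. The study reports an increase of p16 protein in drug-treated SUM159, which is another measure and was taken after a longer treatment. The mRNA of RBM39, whose protein indisulam removes, rose with the drug, from 173 and 178 to 367 and 362 CPM in A549 and from 230 and 224 to 486 and 479 in SUM159, with log2 changes of 1.06 ± 0.04 (SE) and 1.09 ± 0.04.

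Reads of the members could mostly be told from those of other genes. Of the windows of 75 bases along each reference transcript, 3.32% for CLK2 also occurred in its pseudogene CLK2P1, and at most 0.666% were shared with other loci for the remaining members, with none for CLK1, CLK4 and SRPK1. Exons of SRPK1 overlap those of LHFPL5 on the opposite strand over 1879 bases, and LHFPL5 was counted at 0 to 11 reads per library against 2358 to 7035 for SRPK1. Exons of CLK3 overlap genes on the opposite strand, EDC3 among them, over 1180 bases, those of SRPK2 over 505, those of DYRK1A over 446, and CLK4 shares 161 exon bases with the pseudogene RN7SKP70 on its own strand. The strand setting of the counting is not given in the sources used here.

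Untreated cells of both lines had all 8 transcripts, with SRPK1 the highest and DYRK1A the lowest per length of transcript. In A549, SRPK1 stood at 37.5 CPM per kilobase (37.0 and 38.1 in the 2 libraries), followed by CLK2 at 25.2, CLK3 at 24.5, CLK1 at 20.3, PRPF4B at 16.2, SRPK2 at 15.6, CLK4 at 4.52 and DYRK1A at 2.92. The neighbours CLK2 and CLK3 overlapped, as did PRPF4B and SRPK2. In SUM159 the order was SRPK1 at 64.3 CPM per kilobase, CLK3 at 24.3, PRPF4B at 24.1, CLK1 at 22.9, CLK2 at 17.1, SRPK2 at 16.3, CLK4 at 7.60 and DYRK1A at 3.19. There CLK3, PRPF4B and CLK1 formed a run of overlapping neighbours, and CLK2 overlapped SRPK2. Lengths were those of the Ensembl canonical transcripts, from 1847 bases for CLK1 to 17024 for DYRK1A, so a cell that uses shorter forms of DYRK1A would have a higher value than the one given.

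**Figure D1:**
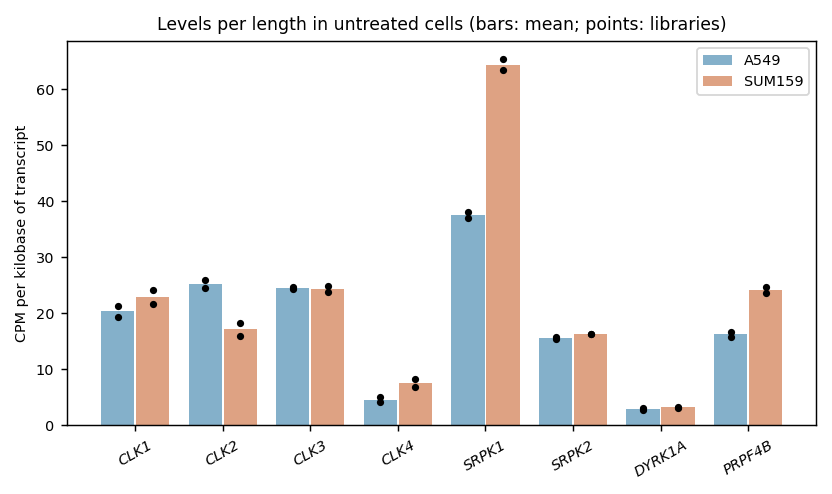
Level of each kinase gene in untreated A549 and SUM159 cells, in CPM per kilobase of the canonical transcript, with bars for the mean and points for the 2 libraries. SRPK1 stood highest in both lines (37.5 and 64.3) and CLK4 and DYRK1A lowest.

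Untreated SUM159 and A549 cells differed in 5 of the 8 transcripts, in a joint fit of all 16 libraries (edgeR quasi-likelihood test, Benjamini-Hochberg adjusted p under 0.05). Of all 17764 genes in that fit 76.3% passed, so the share of the members was not above the background. SRPK1 was 1.57-fold higher in SUM159 (log2 difference 0.65 ± 0.04, adjusted p = 1.71e-12), CLK4 1.54-fold (0.62 ± 0.10, adjusted p = 7.15e-06) and PRPF4B 1.36-fold (0.44 ± 0.05, adjusted p = 1e-08). CLK2 was lower in SUM159, by -0.69 ± 0.08 on the log2 scale (adjusted p = 6.04e-08). CLK3 was lower by -0.14 ± 0.06 (adjusted p = 0.0287), a call that was lost with total-count scaling (-0.04), with DESeq2 (-0.13, adjusted p = 0.105) and without either untreated A549 library (-0.04 and -0.08) or untreated SUM159 replicate 2 (-0.11). CLK1, SRPK2 and DYRK1A gave differences between -0.07 and 0.04 that did not pass.

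Against untreated cells, palbociclib changed 4 members in A549 (CLK4 higher, SRPK1, DYRK1A and PRPF4B lower) and 6 in SUM159 (CLK1, CLK2 and CLK4 higher, SRPK1, DYRK1A and PRPF4B lower), where the test called 43.2% and 54.5% of all genes. Indisulam changed 5 members in A549 (CLK1, CLK4 and DYRK1A higher, CLK2 and SRPK1 lower) and 6 in SUM159 (CLK1, CLK3, CLK4, DYRK1A and PRPF4B higher, SRPK1 lower), with 49.2% and 46.9% of all genes called. The combination changed 6 members in A549 (CLK1, CLK4 and SRPK2 higher, CLK2, SRPK1 and PRPF4B lower) and 4 in SUM159 (CLK4 higher, SRPK1, DYRK1A and PRPF4B lower), with 57.8% and 65.3% of all genes called. By direction, all genes were called higher and lower in 22% and 21.1% (palbociclib), 23.3% and 25.9% (indisulam) and 27.4% and 30.4% (combination) in A549, and in 25.5% and 29%, 21.9% and 24.9%, and 32.2% and 33.1% in SUM159. Given these backgrounds, the number of members called does not set them apart, and the direction and size of each are described below. The 2 treated libraries lay wholly above or below the 2 untreated ones for 7, 8 and 7 members in A549 with palbociclib, indisulam and the combination, where 71.4%, 76.3% and 77.3% of all genes did so, and for 8, 7 and 7 members in SUM159, against 76.4%, 73.9% and 82.6% of all genes. Of the 31 calls against untreated cells, 21 passed in each of the 10 alternative analyses run for it (other scalings, other filters such as a minimum of 10 counts per library, another test, the replicate block, and each library of the pair of groups left out).

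The balance of rises and falls among the members moved with the scaling. With libraries scaled to their total counts, the calls were 2 higher and 2 lower for palbociclib in A549, 3 and 2 for indisulam and 4 and 3 for the combination, and in SUM159 they were 5 and 3, 7 and 1, and 5 and 2. All genes moved the same way. Of all genes called, the higher share went from 51.07%, 47.33% and 47.44% to 62.4%, 52.02% and 57.76% in A549. In SUM159 it went from 46.81%, 46.79% and 49.3% to 62.48%, 57.85% and 64.31%. DESeq2's size factors (RLE) in edgeR gave 2 and 2 for indisulam in A549. In SUM159 they gave 4 and 3 for palbociclib and 3 and 1 for indisulam. Relative to the scaling used here, total counts raised the median log2 change of all genes by 0.105 for palbociclib and by 0.148 for the combination in SUM159, and by 0.0283 to 0.0881 in the other comparisons with untreated cells. Values below are relative to the trimmed mean scaling, under which the median log2 change of all genes was between 0.00137 and 0.028.

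**Figure D2:**
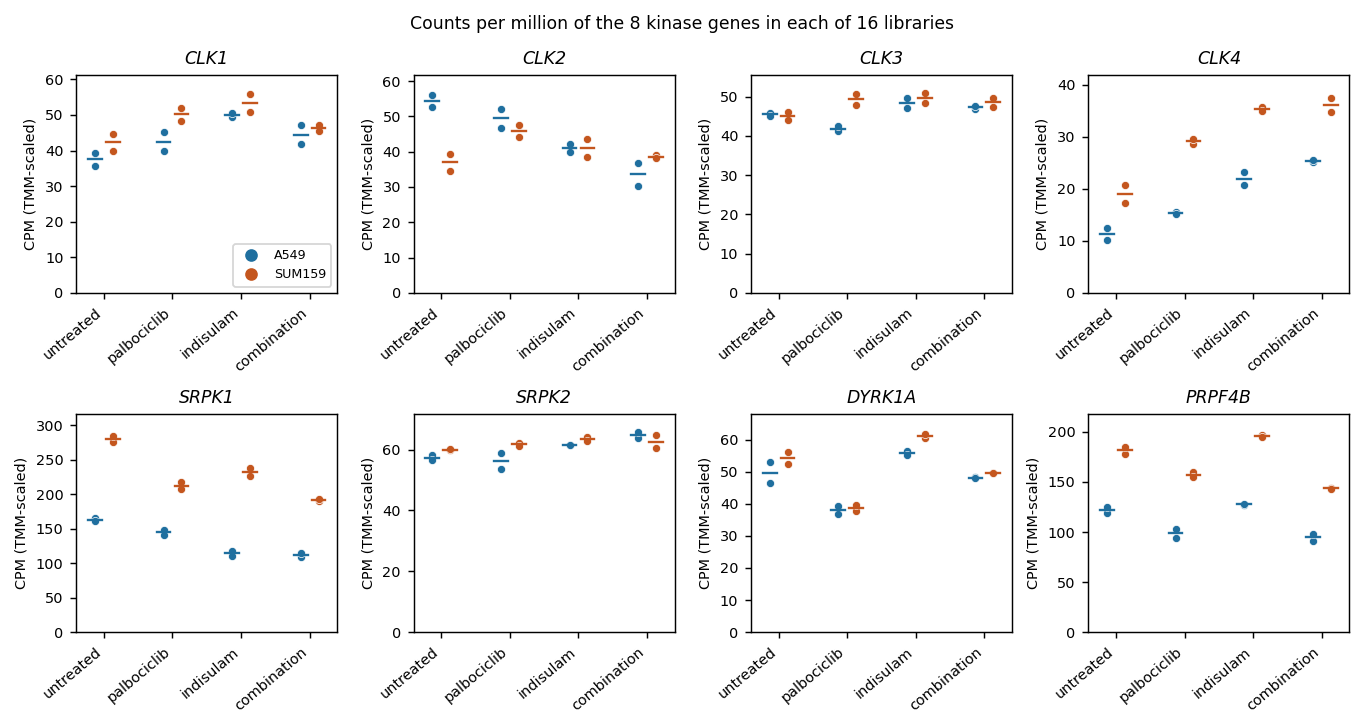
CPM (TMM-scaled within each line, linear axis from 0) of the 8 kinase genes in every library, by treatment, with points for libraries and short lines for the mean of 2. CLK4 rose from 10.2 and 12.5 CPM in untreated A549 to 25.2 and 25.5 with the combination, while SRPK1 fell in both lines.

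CLK4, a nuclear kinase of SR proteins, had the largest changes among the members and rose with each treatment in both lines. In A549 it stood at 10.2 and 12.5 CPM untreated, 15.5 and 15.2 after palbociclib, 23.2 and 20.7 after indisulam and 25.2 and 25.5 after both drugs. In SUM159 the levels were 20.8 and 17.3, 28.7 and 29.6, 35.8 and 35.0, and 34.7 and 37.5 CPM in the same order. No treated library overlapped the untreated ones, and within each line every indisulam library lay above every palbociclib library. The log2 changes in A549 were 0.44 ± 0.10 (SE, adjusted p = 0.00283) with palbociclib, 0.96 ± 0.10 (adjusted p = 2.18e-06) with indisulam and 1.17 ± 0.10 (adjusted p = 1.22e-07) with the combination, the last a 2.24-fold level. In SUM159 they were 0.62 ± 0.08 (adjusted p = 3.41e-06), 0.90 ± 0.08 (adjusted p = 7.68e-08) and 0.92 ± 0.08 (adjusted p = 1.18e-08). Without replicate 1 of untreated A549, the palbociclib change in that line was 0.30 ± 0.12 and no longer passed (adjusted p = 0.0706).

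CLK1, likewise a nuclear kinase of SR proteins, rose with indisulam in both lines by a smaller amount. In A549 it stood at 35.7 and 39.5 CPM untreated, 45.1 and 39.9 after palbociclib, 49.3 and 50.5 after indisulam and 41.8 and 47.1 after both drugs. In SUM159 it stood at 44.7 and 39.9, 51.9 and 48.3, 50.8 and 55.8, and 47.1 and 45.6 CPM. Treated libraries lay above untreated ones throughout, in places by little (39.9 against 39.5 for palbociclib in A549). The indisulam change was 0.41 ± 0.08 on the log2 scale in A549 (adjusted p = 0.000483), while SUM159 gave 0.34 ± 0.06 (adjusted p = 0.000422). With palbociclib it was 0.24 ± 0.06 in SUM159 (adjusted p = 0.00415), a call lost without replicate 2 of untreated SUM159 (0.16), and 0.17 ± 0.08 in A549, where it did not pass (adjusted p = 0.0861). With the combination it was 0.24 ± 0.08 in A549 (adjusted p = 0.015), lost without untreated replicate 1 (0.17) or combination replicate 2 (0.15), and the SUM159 value of 0.13 ± 0.06 did not pass (adjusted p = 0.0825). The latter passed with total-count scaling (0.28, adjusted p = 0.00109), with the 10-count minimum (0.18, adjusted p = 0.0276) and without untreated replicate 1 (0.21, adjusted p = 0.0272). The palbociclib value in A549 passed with total-count scaling (0.23, adjusted p = 0.0238) and without palbociclib replicate 2 (0.26, adjusted p = 0.0372).

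CLK2, another nuclear kinase of SR proteins, fell in A549 with indisulam and the combination and rose in SUM159 with palbociclib. In A549 its levels were 52.7 and 56.0 CPM untreated, 52.1 and 46.8 after palbociclib, 42.1 and 39.8 after indisulam and 30.2 and 36.9 after both drugs. In SUM159 they were 39.3 and 34.5, 44.0 and 47.6, 38.6 and 43.4, and 39.0 and 38.2 CPM. The A549 libraries given indisulam, alone or with palbociclib, all lay below the untreated ones, whereas in SUM159 the indisulam and combination libraries overlapped them and the palbociclib libraries lay above. In A549 the log2 change was -0.41 ± 0.08 with indisulam (adjusted p = 0.000889) and reached -0.70 ± 0.08 with the combination (adjusted p = 6.01e-06), and -0.14 ± 0.08 with palbociclib, which did not pass (adjusted p = 0.169). In SUM159 it rose by 0.31 ± 0.07 with palbociclib (adjusted p = 0.00106), and the values of 0.15 ± 0.07 with indisulam and 0.07 ± 0.07 with the combination did not pass (adjusted p = 0.0879 and 0.437). Without replicate 2 of untreated SUM159 the last value was -0.03. With total-count scaling both passed (0.21 each, adjusted p = 0.0238 and 0.0139), and the indisulam value also passed without untreated replicate 1 (0.26, adjusted p = 0.0259) or indisulam replicate 1 (0.24, adjusted p = 0.0344).

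CLK3, the remaining member of that nuclear family, stayed within a narrow range. It ran from 41.1 to 49.6 CPM over the 8 A549 libraries and from 44.2 to 51.0 CPM over the 8 SUM159 libraries. The only change that passed was 0.14 ± 0.06 on the log2 scale with indisulam in SUM159 (adjusted p = 0.0497), from 46.1 and 44.2 to 51.0 and 48.3 CPM. That call was kept in 1 of 10 alternatives, the total-count scaling, and without either untreated or either indisulam library the value lay between 0.0994 and 0.183. Palbociclib gave 0.13 ± 0.05 in SUM159 (adjusted p = 0.0502) and -0.12 ± 0.06 in A549 (adjusted p = 0.1), values of opposite sign that did not pass in either line. The SUM159 value passed in 5 of 10 alternatives, namely total-count scaling (0.24, adjusted p = 0.00135), RLE size factors (adjusted p = 0.0407), no filter (adjusted p = 0.0418), the 10-count minimum (adjusted p = 0.0171) and without palbociclib replicate 1 (adjusted p = 0.0196). The combination value also passed with total-count scaling, where A549 gave 0.15 (adjusted p = 0.0444) while SUM159 gave 0.26 (adjusted p = 0.000582), and in SUM159 with the 10-count minimum (0.15, adjusted p = 0.0266).

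SRPK1, which phosphorylates SR proteins in the cytoplasm and promotes their import, fell with each treatment in both lines. In A549 it stood at 166 and 161 CPM untreated, 148 and 141 after palbociclib, 117 and 111 after indisulam and 108 and 114 after both drugs. In SUM159 it stood at 275 and 284, 218 and 207, 238 and 227, and 190 and 192 CPM. No treated library reached an untreated one. Indisulam had the larger single-drug effect in A549 and palbociclib in SUM159, in the order of these values. In A549 palbociclib gave a log2 change of -0.18 ± 0.05 (adjusted p = 0.00787), indisulam one of -0.52 ± 0.05 (adjusted p = 7.65e-07) and the combination one of -0.55 ± 0.05 (adjusted p = 1.89e-07). The same changes in SUM159 were -0.40 ± 0.04 (adjusted p = 1.55e-07), -0.27 ± 0.04 (adjusted p = 2.41e-05) and -0.55 ± 0.04 (adjusted p = 1.64e-09). The combination left a 0.683-fold level in A549 and a 0.684-fold level in SUM159. The palbociclib call in A549 was lost with total-count scaling (-0.12, adjusted p = 0.0511), without untreated replicate 1 (-0.16) and without palbociclib replicate 2 (-0.14), while the other 5 calls held in each alternative.

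SRPK2, the other cytoplasmic kinase of SR proteins, showed little movement beside SRPK1. Its levels ran from 53.7 to 65.8 CPM over the A549 libraries and from 59.8 to 64.7 CPM over those of SUM159. In A549 the combination libraries, at 63.9 and 65.8 CPM, lay above the untreated ones at 58.1 and 56.5, with a log2 change of 0.18 ± 0.06 (adjusted p = 0.0141). That call was lost with DESeq2 (adjusted p = 0.0523) and without untreated replicate 2 (0.16) or combination replicate 2 (0.15). The other 5 changes lay between -0.0214 and 0.0986 on the log2 scale and did not pass. With total-count scaling the one with palbociclib in A549 turned positive, and those in SUM159 passed, at 0.15 for palbociclib (adjusted p = 0.0161), 0.13 for indisulam (adjusted p = 0.0317) and 0.21 for both drugs (adjusted p = 0.00112).

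DYRK1A, a kinase that phosphorylates splicing factors along with regulators of the cell cycle such as cyclin D1, fell with palbociclib in both lines and not with indisulam. Its levels in A549 were 46.4 and 53.1 CPM untreated, 39.2 and 36.7 after palbociclib, 56.6 and 55.2 after indisulam and 48.2 and 47.9 after both drugs. In SUM159 they were 52.4 and 56.2, 37.9 and 39.7, 60.5 and 61.7, and 49.5 and 49.6 CPM. The palbociclib libraries were the lowest and the indisulam libraries the highest in each line, with the combination between them. Palbociclib lowered DYRK1A by -0.39 ± 0.07 on the log2 scale in A549 (adjusted p = 0.000243), while in SUM159 the change was -0.48 ± 0.05 (adjusted p = 6.29e-07). Indisulam gave 0.17 ± 0.06 in A549 (adjusted p = 0.042), while SUM159 showed 0.17 ± 0.05 (adjusted p = 0.0109). These rises were lost with DESeq2 (adjusted p = 0.157 and 0.0727) and without untreated replicate 1 of the line (0.08 and 0.12). The A549 rise was further lost with RLE size factors (adjusted p = 0.052), no filter (adjusted p = 0.0521) and the replicate block (adjusted p = 0.0543). Both were also lost with single indisulam libraries left out, namely without indisulam replicate 1 (0.16) or 2 (0.19) in A549 and without indisulam replicate 2 (0.16) in SUM159. The combination value was -0.05 ± 0.07 in A549, which did not pass, and -0.13 ± 0.05 in SUM159 (adjusted p = 0.033), and both turned positive with total-count scaling. The SUM159 call was kept in 3 of 10 alternatives, being also lost with DESeq2 (adjusted p = 0.105), no filter (adjusted p = 0.0816) or the 10-count minimum (adjusted p = 0.127), and without untreated replicate 2 (-0.09), combination replicate 1 (-0.13) or combination replicate 2 (-0.13).

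PRPF4B, the tri-snRNP kinase, fell with palbociclib, alone and in the combination, in both lines. In A549 it stood at 119 and 125 CPM untreated, 103 and 93.8 after palbociclib, 127 and 128 after indisulam and 91.3 and 98.2 after both drugs. In SUM159 it stood at 178 and 185, 160 and 155, 197 and 195, and 144 and 143 CPM. Both groups given palbociclib lay below the untreated libraries, and the indisulam libraries lay above them in each line. The log2 change with palbociclib was -0.31 ± 0.05 in A549 (adjusted p = 0.000369), while that in SUM159 was -0.21 ± 0.04 (adjusted p = 0.000164). Both drugs together gave -0.36 ± 0.06 in A549 (adjusted p = 5.68e-05), while SUM159 gave -0.34 ± 0.04 (adjusted p = 5.66e-07). With indisulam alone the value of 0.07 ± 0.05 in A549 did not pass (adjusted p = 0.314), and that of 0.11 ± 0.04 in SUM159 did (adjusted p = 0.0256). The SUM159 rise was kept in 4 of 10 alternatives. It was lost with DESeq2 (adjusted p = 0.121), RLE size factors and no filter, and without untreated replicate 1 (0.08), indisulam replicate 1 (0.10) or indisulam replicate 2 (0.12).

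**Figure D3:**
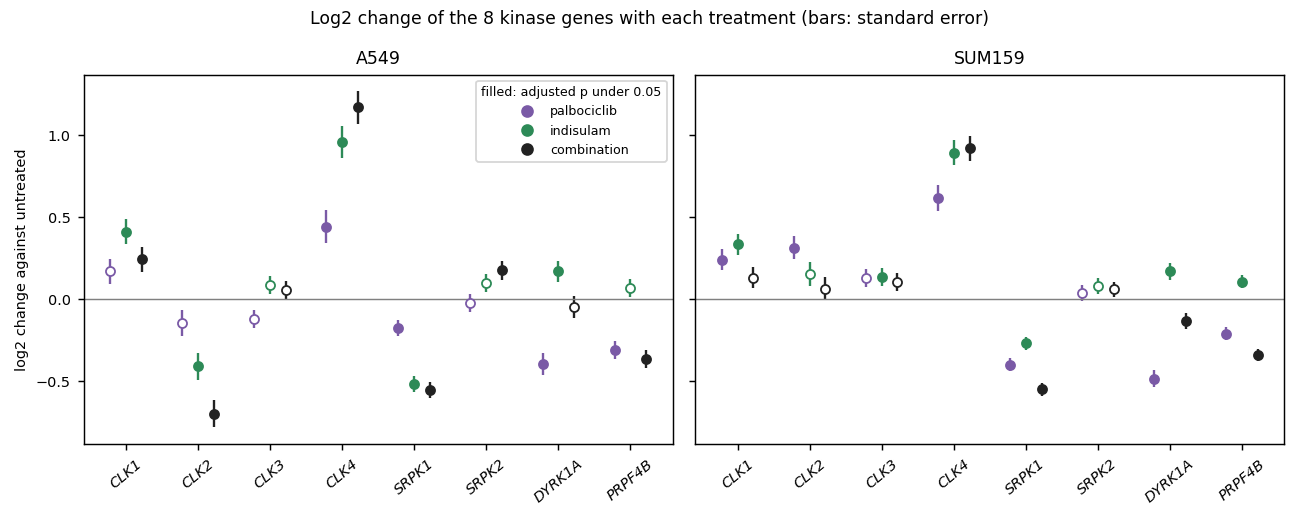
Log2 change of the 8 kinase genes with palbociclib, indisulam or the combination against untreated cells, in A549 (left) and SUM159 (right), with bars for the standard error and filled points for an adjusted p under 0.05. CLK4 lay above 0 and SRPK1 below 0 in all 6 comparisons. CLK2 was negative in A549 and positive in SUM159, but did not pass with palbociclib in A549 or with indisulam or the combination in SUM159.

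The next question was what each drug did on top of the other. Indisulam added to palbociclib changed 6 members in A549, where 51.5% of all genes were called, and 5 in SUM159, where 48.3% were. It raised CLK4 (log2 change 0.72 ± 0.09 in A549, 0.30 ± 0.07 in SUM159) and DYRK1A (0.35 ± 0.07 and 0.35 ± 0.05), and it lowered CLK2 (-0.55 ± 0.08 and -0.25 ± 0.07) and SRPK1 (-0.38 ± 0.05 and -0.15 ± 0.04) in both lines. Their adjusted p lay between 9.26e-06 and 0.00511 in the fits that gave these values, and the 8 calls held in every alternative run. Over the alternatives the SUM159 values shrank to 0.245 for CLK4, -0.195 for CLK2 and -0.107 for SRPK1. In A549 CLK3 (0.18 ± 0.05) and SRPK2 (0.20 ± 0.05) also rose, both lost without palbociclib replicate 1 (0.16 and 0.15) and CLK3 also with DESeq2, and in SUM159 PRPF4B fell by -0.13 ± 0.04, lost with total-count scaling (-0.09).

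Palbociclib added to indisulam changed 3 members in A549, with 38.8% of all genes called (20.1% downward), and 4 in SUM159, with 52.9% (28% downward), each of them downward (with total-count scaling 1 higher and 2 lower in A549). PRPF4B fell in both lines, by -0.43 ± 0.05 in A549 (adjusted p = 2.21e-05), with -0.45 ± 0.04 in SUM159 (adjusted p = 2.83e-08), which on these indisulam-treated cells was the most negative value of any member. DYRK1A fell by -0.30 ± 0.05 in SUM159 (adjusted p = 6.36e-05) and by -0.22 ± 0.06 in A549, where the call was lost with total-count scaling (-0.16), with DESeq2 (-0.21) and without either indisulam library (-0.20 and -0.24). SRPK1 fell by -0.28 ± 0.04 in SUM159 (adjusted p = 1.08e-05), and its value in A549 was -0.04 ± 0.05 (adjusted p = 0.606). CLK2 fell in A549 by -0.29 ± 0.09, lost without indisulam replicate 1 (-0.25) or combination replicate 1 (-0.13). CLK1 fell in SUM159 by -0.20 ± 0.06, lost with total-count scaling (-0.11) and without indisulam replicate 2 (-0.14) or combination replicate 2 (-0.18).

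The change with both drugs was then set against the changes of the 2 single drugs added up on the log2 scale. In SUM159, 4 of the 8 members departed from that sum, where 4.38% of all genes did (2.16% below it), and all 4 lay below it. CLK4 gave 0.92 with the combination against a sum of 1.51, a departure of -0.59 ± 0.10 (adjusted p = 0.004) that held in every alternative run. CLK1 gave 0.13 against 0.58 (departure -0.44 ± 0.09, adjusted p = 0.00958), CLK2 gave 0.07 against 0.47 (-0.40 ± 0.10, adjusted p = 0.0271) and PRPF4B gave -0.34 against -0.10 (-0.24 ± 0.05, adjusted p = 0.0172). Of these 4, CLK4 rose and PRPF4B fell with the combination itself, and the combination values of CLK1 and CLK2 did not pass against untreated cells. The departure of CLK1 was lost without untreated replicate 2 (-0.37) or indisulam replicate 2 (-0.39), and that of PRPF4B without untreated replicate 1 (-0.22), indisulam replicate 1 (-0.24) or 2 (-0.26), or combination replicate 2 (-0.24). That of CLK2 was lost with the replicate block (adjusted p = 0.0507) and without untreated replicate 2 (-0.31), indisulam replicate 2 (-0.33) or either combination library (-0.42 and -0.40). The count of members fell to 1 without indisulam replicate 2 and to 2 without untreated replicate 2 or combination replicate 2.

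In A549 none of the 8 members departed from the sum in the edgeR test, where 3.53% of all genes did, and DESeq2 likewise called 0. Without adjustment 1 member, CLK1, lay under 0.05 in the edgeR test, with 0.24 for the combination against a sum of 0.58, a departure of -0.34 ± 0.11 (adjusted p = 0.098) in the direction seen for it in SUM159. With no filter on low counts 1 member passed, as did 1 without combination replicate 2. Whether the departures differed between the lines was not tested.

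**Figure D4:**
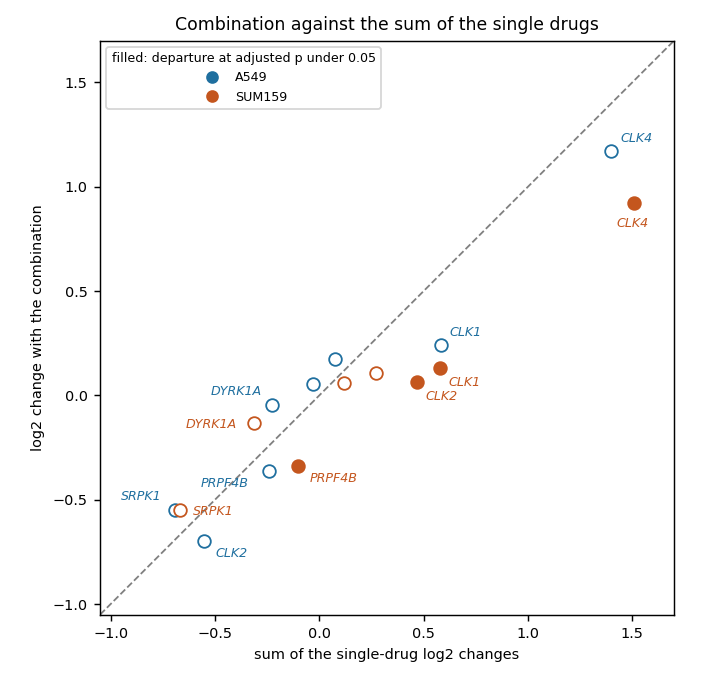
Log2 change of each kinase gene with the combination (y axis) against the sum of its changes with palbociclib and with indisulam (x axis), for A549 and SUM159, with the dashed line where both are equal and filled points for a departure with adjusted p under 0.05. The filled points are CLK1, CLK2, CLK4 and PRPF4B of SUM159, all below the line.

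The responses were compared between the lines as interactions in the joint fit, with differences given as SUM159 minus A549. For CLK2 the palbociclib responses differed by 0.55 ± 0.11 (adjusted p = 0.00159), the indisulam responses by 0.56 ± 0.12 (adjusted p = 0.00173) and those to the combination by 0.83 ± 0.12 (adjusted p = 8.51e-06), where 12.8%, 15% and 30.9% of all genes were called. Among the members CLK2 was the 1 called in all 3. The indisulam and combination differences held in every alternative run, although without combination replicate 1 of A549 the latter was 0.545. The palbociclib difference was lost without untreated replicate 2 (0.348, adjusted p = 0.0763) or palbociclib replicate 2 of A549 (0.333, adjusted p = 0.0906). In this fit the median difference over all genes was 0.0816, 0.0193 and 0.0995, and CLK2 stood above that median in each. The median depended on the scaling and was -0.0171, 0.00896 and 0.0145 with RLE size factors. Of the palbociclib calls over all genes 75.4% were higher in this fit and 44.0% with RLE size factors.

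CLK3 and SRPK1 also differed in 1 response each. CLK3 differed with palbociclib, by 0.35 ± 0.08 (adjusted p = 0.00407), a call lost with DESeq2 (0.25, adjusted p = 0.0912) and without any single untreated (0.16 and 0.20) or palbociclib (0.15 and 0.23) library of A549. The median over all genes in the joint fit was 0.0816, and the separate fits gave CLK3 changes of 0.13 in SUM159 and -0.12 in A549. SRPK1 differed with indisulam, by 0.25 ± 0.06 (adjusted p = 0.00867), its fall being smaller in SUM159, and this call was lost without untreated replicate 1 (0.20) or indisulam replicate 2 (0.19) of A549 or indisulam replicate 1 (0.22) of SUM159. The line differences of CLK4, the most changed member, were 0.27 ± 0.13, -0.06 ± 0.13 and -0.18 ± 0.13 for palbociclib, indisulam and the combination and did not pass (adjusted p = 0.209, 0.835 and 0.328). Those of CLK1, SRPK2, DYRK1A and PRPF4B did not pass for any treatment either. With RLE size factors 3 members passed for palbociclib, 2 higher and 1 lower. DESeq2 gave 1 higher and 1 lower for palbociclib, the lower one being a member other than CLK2 and CLK3. In the joint edgeR fit the most negative palbociclib difference among the members was that of SRPK1. It was -0.125 ± 0.062 and did not pass (adjusted p = 0.213), while the separate fits gave changes of -0.40 in SUM159 and -0.18 in A549.

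The genes around these kinases were read from 4 lists: their SR protein and SR-like substrates, tri-snRNP and U2 components, related kinases, and the phosphatases and carriers that act on the same proteins. Each list is described by its counts and its median log2 change. The median over all genes tested, to be set beside every list, was 0.028 in A549 and 0.0186 in SUM159 after palbociclib, 0.00891 and 0.00877 after indisulam and 0.00137 and 0.0149 after both drugs, and the shares of all genes called in each comparison are those given above. The largest rise and fall of a list were taken among the called genes that averaged 5 CPM or more.

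Of the SR proteins and SR-like regulators, 24 were tested in A549 and 23 in SUM159. With palbociclib 2 rose and 14 fell in A549 and 4 rose and 14 fell in SUM159, with medians of -0.221 and -0.243. With indisulam 15 rose and 3 fell in A549 and 18 rose and 2 fell in SUM159, with medians of 0.273 and 0.221. The combination gave 6 rises and 11 falls in A549 and 8 and 11 in SUM159, with medians of 0.0254 and -0.0332, and these counts became 11 and 8 in each line with total-count scaling. RSRP1, an arginine and serine-rich protein, was the largest rise in SUM159 with each treatment, from 35.3 and 30.6 CPM to 62.9 and 67.0 with indisulam (log2 change 0.98 ± 0.07). TRA2B, a splicing activator with RS domains, fell most above that level with indisulam and the combination in both lines, from 248 and 244 CPM to 129 and 131 with the combination in A549 (-0.92 ± 0.04) and from 311 and 297 to 169 and 164 in SUM159 (-0.87 ± 0.04). Below it, SRSF12 fell further in A549, by -0.70 ± 0.26 with indisulam and by -1.65 ± 0.30 with the combination, and was named after its values were seen. SRSF4 was the largest fall with palbociclib in A549 (-0.64 ± 0.05) and SRSF1 in SUM159 (-0.68 ± 0.05). LUC7L, a U1-associated protein, was the largest rise with indisulam (0.89 ± 0.06) and the combination (0.64 ± 0.06) in A549, where RSRP1 was that with palbociclib (0.37 ± 0.07).

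All 16 genes of the tri-snRNP and U2 list were tested, among them those of the proteins that PRPF4B phosphorylates. The list also holds SNRNP70, a U1 protein, which is counted below (-0.24 with palbociclib and 0.37 with indisulam in A549). U2AF1 was measured poorly in A549, with standard errors of 0.34 and 0.31 for these drugs, and did not pass. With palbociclib 14 fell and none rose in each line, with medians of -0.368 in A549 and -0.353 in SUM159, and PRPF4B itself fell beside them. With indisulam 9 rose and 1 fell in A549 (median 0.249) and 6 rose and 4 fell in SUM159 (median 0.0464), and the SUM159 counts became 8 and 3 with total-count scaling and 4 and 4 with DESeq2. With the combination 5 rose and 7 fell in A549 (6 and 5 with total-count scaling) and 1 rose and 10 fell in SUM159 (4 and 10), with medians of -0.0788 and -0.335. PRPF3, a U4/U6 protein, was the largest rise with indisulam in both lines, from 51.1 and 55.6 CPM to 127.5 and 124.9 in A549 (1.24 ± 0.06) and from 82.5 and 78.4 to 100.3 and 105.9 in SUM159 (0.36 ± 0.04). EFTUD2, the U5 GTPase, was the largest fall with indisulam in both (-0.52 ± 0.05 and -0.42 ± 0.04). PRPF4, which despite its name is no kinase but a U4/U6 protein, was the largest fall with palbociclib in A549 (-0.56 ± 0.05), and SART1 in SUM159 (-0.67 ± 0.05). With the combination PRPF3 (1.06 ± 0.06) and EFTUD2 (-0.71 ± 0.05) were the largest rise and fall in A549, and SF3B1 (0.09 ± 0.04) and USP39 (-0.67 ± 0.04) in SUM159.

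Of 18 related kinases, 16 were tested in A549 and 17 in SUM159. Palbociclib gave 3 rises and 9 falls in A549 and 2 and 10 in SUM159, indisulam 1 and 6, and 4 and 4, and the combination 3 and 10, and 3 and 9. With total-count scaling these became 4 and 6, 3 and 9, 2 and 6, 6 and 4, 4 and 8, and 6 and 7, in the same order, and with DESeq2's size factors (RLE) in edgeR indisulam gave 2 and 5 in SUM159. Palbociclib had medians of -0.199 and -0.211, indisulam of -0.0825 and 0.0547, and the combination of -0.258 and -0.212. DYRK1B, the paralogue of DYRK1A, was the largest rise in A549 with each treatment, from 11.2 and 13.1 CPM to 28.6 and 29.4 after palbociclib (1.26 ± 0.10), 16.4 and 16.8 after indisulam (0.45 ± 0.11) and 32.2 and 27.2 after both drugs (1.29 ± 0.10). With palbociclib in A549 it thus moved opposite to DYRK1A, whose change was -0.39 ± 0.07. CDK9, the kinase of transcription elongation, was the largest fall with indisulam in both lines (-0.56 ± 0.06 and -0.61 ± 0.06). HIPK1, a nuclear kinase related to the DYRK family, was the largest fall in SUM159 with palbociclib (-0.70 ± 0.06) and with the combination (-0.67 ± 0.06). The other largest falls in A549 were CDK11B with palbociclib (-0.57 ± 0.08) and AKT1 with the combination (-0.63 ± 0.04), and the largest rises in SUM159 were DYRK4 with palbociclib (0.29 ± 0.08) and CDK10 with indisulam (0.33 ± 0.07) and the combination (0.35 ± 0.07). Below 5 CPM, DYRK1B rose further with the combination in SUM159 (0.75 ± 0.25, adjusted p = 0.0156). Of the windows of 75 bases along the CDK11B transcript 55.2% also occurred in its neighbour CDK11A, so its counts are uncertain.

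All 15 phosphatases and carriers were tested. Palbociclib gave no rise and 10 falls in A549 and no rise and 13 falls in SUM159, with medians of -0.199 and -0.321. Indisulam gave 5 rises and 6 falls, and 1 and 7, with medians of 0.00525 and -0.102, and with total-count scaling 7 and 5, and 3 and 6. The combination gave 3 rises and 7 falls, and no rise and 14 falls, with medians of -0.0929 and -0.337. PPM1G, a nuclear phosphatase of the PP2C family found with the spliceosome, was the largest fall with palbociclib and the combination in both lines, from 366 and 344 CPM to 161 and 165 with the combination in SUM159 (-1.12 ± 0.04) and from 285 and 283 to 161 and 168 in A549 (-0.79 ± 0.04). It was also the largest fall with indisulam in A549 (-0.45 ± 0.04), while PPP4C, the catalytic subunit of protein phosphatase 4, was that in SUM159 (-0.50 ± 0.05). PPP1R10, a nuclear targeting subunit of protein phosphatase 1, was the largest rise with indisulam in both lines (0.53 ± 0.05 and 0.16 ± 0.04) and with the combination in A549 (0.36 ± 0.05).

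**Figure D5:**
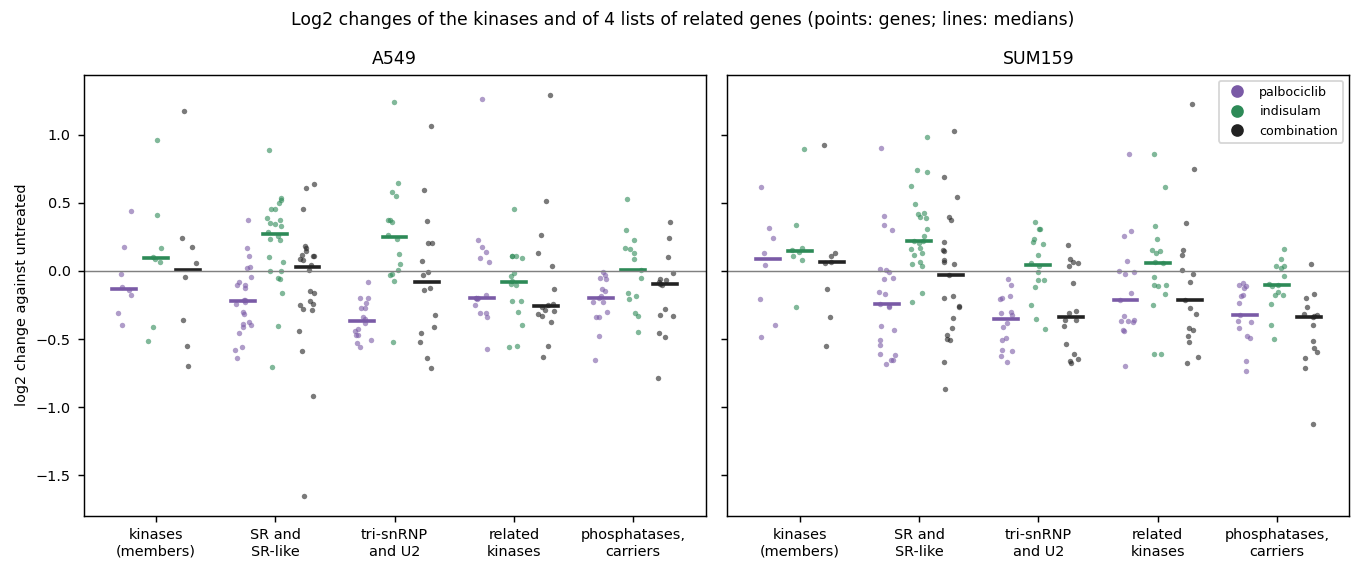
Log2 change against untreated cells of the 8 kinases and of the genes in the 4 lists, in A549 (left) and SUM159 (right), with a point for each tested gene and a line for the median of the list. With palbociclib the points of the tri-snRNP and U2 list lay below 0 in both lines (medians -0.368 and -0.353), and with indisulam most points of the SR list lay above it (medians 0.273 and 0.221).

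For the 3 members with the largest changes over the 6 comparisons with untreated cells, the genes with the most similar set of 6 log2 changes were sought among 9658 genes. Likeness was the root mean square difference (0 for identical changes), a description over 6 values that share untreated libraries. CLK4, whose own root mean square change was 0.867, was nearest to ZNF350 (difference 0.0646) and ZNF75A (0.137), both zinc finger genes. With indisulam alone ZNF350 gave 1.10 in A549 and 0.89 in SUM159, beside 0.96 and 0.90 for CLK4. SRPK1 (0.434) was nearest to PTDSS1 (0.0478), a phosphatidylserine synthase, and UCK1 (0.055), a uridine-cytidine kinase. CLK2 (0.365) was nearest to NHLRC3 (0.103) and ZNF37BP (0.121), with values for the combination of -0.71 and -0.52 in A549 and of 0.07 and 0.08 in SUM159.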

How the data were processed

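The authors deposited unnormalized counts of reads for each Ensembl gene, in separate files for the libraries. RNA was selected for poly(A) tails, made into strand-specific libraries, sequenced in pairs and aligned to GRCh38, as the methods of the study state. The submitters' processing notes name HISAT2 2.2.1 and HTSeq, whose strand setting and annotation release are not given in the sources used here. Nothing was normalized or pooled. Rows that name no gene held 13.2% to 16.4% of the reads and were left out.

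The 16 libraries formed 8 groups of 2, from the labels. Of 58676 identifiers 58207 matched GENCODE 44. Each line was fitted with edgeR 4.0.16 in R 4.3.3 (filterByExpr, TMM scaling, glmQLFit and glmQLFTest, Benjamini-Hochberg adjustment over all genes, threshold 0.05), with 15744 genes in A549 and 16080 in SUM159. Lines were compared in 1 fit of 16 libraries. Standard errors came from the log2 change and its F statistic. CPM used TMM-scaled sizes. Tested on simulated counts with 200 genes moved by 1 on the log2 scale, the fits for indisulam recovered 81.5% in A549 (15432 genes) and 81.5% in SUM159 (15751 genes). Of those calls 8.43% and 6.86% were false, above the 0.05 threshold. The line difference in the indisulam response recovered 64.5% (16656 genes), with 5.84% false. No other gene moved in the simulation, whereas indisulam changed 49.2% and 46.9% of all genes here and its largest member change was 0.96. These rates therefore do not measure how well changes of the members were found.

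Named genes were the 8 members, RBM39, for each list and comparison with untreated cells the largest rise and fall among called genes whose mean was 5 CPM or more, and the 2 genes most like each of the 3 most changed members. Members, lists and rules were chosen with earlier results of these data known. CDK11A, SRSF12 and DYRK1B in SUM159 were named after values were seen. Alternatives were total-count scaling, RLE size factors in edgeR, DESeq2 1.42.0, no filter or at least 10 counts in every library, the replicate number as a block, and each library left out. Where 1 library remained in a group, it was assumed to vary like the other groups.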

Additional observations from a re-analysis of the deposited data

Results flagged for a closer look

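The effect of a drug differed between the lines, by a test of the difference itself, in 5 cases among the 8 kinases and 3 treatments. These were 2, 2 and 1 of the 8 for palbociclib, indisulam and the combination, where 12.8%, 15% and 30.9% of all genes were called. The count itself is not read as a result about the members. CLK2 differed by 0.553 on the log2 scale with palbociclib, 0.563 with indisulam and 0.828 with the combination, the values being the change in SUM159 minus that in A549. CLK3 differed by 0.347 with palbociclib. SRPK1 differed by 0.249 with indisulam. The median difference over all genes in the same fit was 0.0816 for palbociclib, 0.0193 for indisulam and 0.0995 for the combination. RLE size factors gave medians of -0.0171, 0.00896 and 0.0145 in the same order. Untreated CLK2 was also lower in SUM159 than in A549, by -0.69 ± 0.08 on the log2 scale, and this was measured in the same untreated libraries. Groups of 2 are too small for a check of single outlying samples.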

How the results depend on the processing

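Of the 31 calls of a member against untreated cells, 21 held under each of their 10 alternatives, and of the 32 calls in other comparisons 19 did. Scaling to total counts raised the members changed by the combination in SUM159 from 4 to 7 (5 higher, 2 lower), while all genes called went from 10496 to 10605 of 16080. It turned the uncalled SRPK2 value for palbociclib in A549 to 0.0384 and the DYRK1A values for the combination to 0.0399 in A549 and 0.0166 in SUM159. DESeq2 lowered the members changed by indisulam in SUM159 from 6 to 3, while all genes called went from 7538 of 16080 to 5790 of 14521. Without a filter on low counts 1 member departed from the sum in A549, in place of 0, and 998 of 29544 genes did, in place of 556 of 15744. With single libraries left out, the members changed ran from 2 to 4 for palbociclib in A549, from 3 to 5 for indisulam in SUM159 and from 1 to 4 for palbociclib added to indisulam in A549. Over the same fits the departures called in SUM159 ran from -0.741 to -0.465 (CLK4), -0.539 to -0.366 (CLK1), -0.512 to -0.312 (CLK2) and -0.271 to -0.22 (PRPF4B). The called line differences for palbociclib ran from 0.333 to 0.644 (CLK2) and 0.147 to 0.385 (CLK3). Those for indisulam ran from 0.471 to 0.656 (CLK2) and 0.186 to 0.292 (SRPK1), and that for the combination from 0.545 to 0.918 (CLK2). Over these fits the uncalled values that changed sign ran from -0.0967 to 0.0344 (SRPK2, palbociclib, A549), from -0.143 to 0.0526 (DYRK1A, combination, A549) and from -0.032 to 0.16 (CLK2, combination, SUM159). The 24 counts over lists stayed within 1.5 times their value under the other scalings, filters and test and the replicate block, and were not computed with single libraries left out. Unless a value or a smaller number of libraries shows it, the cause was not tested.

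The replicate numbers showed no pairing of the libraries, with correlations of their deviations between -0.158 and 0.164. With the number as a replicate block, no count of members moved by more than 1.5 times, and 3 calls were lost, namely DYRK1A with indisulam in A549 (adjusted p = 0.0543), CLK3 with indisulam in SUM159 (adjusted p = 0.0636) and the departure of CLK2 in SUM159 (adjusted p = 0.0507). Crossing the 2 numbers within 1 group, which was decided on after seeing the data, gave 5 members changed with palbociclib in A549, and 6 in A549 and 5 in SUM159 with indisulam added to palbociclib. At these depths every member was well above the floor. Small changes were limited by the spread between 2 libraries and by the scaling. With total counts the median log2 change of all genes rose by 0.148 for the combination in SUM159.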
